A study of Mus musculus with 4 samples.

Results

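Double-null fibroblasts, which lack both Trp53 and Zfp871, were compared with wild-type (WT) fibroblasts in a table of raw RNA sequencing counts per gene. The comparison holds 1 library against 1 library. It covers the 13684 genes of 54532 gene IDs (25.1%) whose CPM, the count scaled by the total of its library, was at least 1 in at least 1 of both libraries. The gene just inside that limit was 3110009E18Rik, with 23 counts in double-null and 14 in WT cells. The gene just outside it was Ttn, with 22 counts in double-null and 12 in WT cells.

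The cells were primary mouse embryonic fibroblasts, the connective-tissue cells that grow out of a minced embryo. All were C57BL/6, were taken from embryos 12.5 to 13.5 days after mating and were harvested at passage 4 while still dividing. The 4 genotypes were Trp53-/-; Zfp871-/- (double null), Trp53-/-, Zfp871-/- and WT, with 1 library each, and the single nulls are given here beside the pair that is compared. Intercrosses of mice heterozygous for both genes gave double-null, Trp53-/- and WT cells, and intercrosses of Zfp871 heterozygotes gave Zfp871-/- and WT cells. The cross that gave the sequenced WT cells, any pooling of embryos and the build of each allele do not appear in the sources used here. Differences of litter or culture therefore cannot be told apart from genotype, and with 1 library a genotype there was no replicate check and no test.

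Trp53 encodes p53, a transcription factor that is stabilized by DNA damage and other stress. It switches on genes that halt the cell cycle, repair DNA or kill the cell, and its target Mdm2 encodes the ubiquitin ligase that degrades it, which closes a feedback loop. Fibroblasts without p53 are known to escape the growth arrest that limits primary cultures. Zfp871 encodes a zinc finger protein of the KRAB type, a family whose members are known mostly as DNA-binding repressors.

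The libraries held 22324599 counts in double-null, 21004078 in Trp53-/-, 19974054 in Zfp871-/- and 19303167 in WT cells, of which 97.7% to 98.6% fell on protein-coding genes. The 10 fibroblast markers summed to a normalized CPM of 24737 in double-null, 28400 in Trp53-/-, 38894 in Zfp871-/- and 34612 in WT cells, with 2 at least 2-fold higher in the double null than in WT, 2 lower by that much and a median log2 ratio of -0.11. Col1a1, the main chain of type I collagen, had 205437 counts in double-null, 224041 in Trp53-/-, 297940 in Zfp871-/- and 280560 in WT cells. Markers of other tissues were uneven. Of 22 skeletal muscle genes 10 had 0 counts in double-null and 9 in WT cells, and the endothelial genes Pecam1 and Cdh5 and the epithelial genes Epcam and Cdh1 stayed under 1 CPM in both. Other members of those lists were expressed, such as Flt1, a VEGF receptor, with a normalized CPM of 114 in double-null and 47.1 in WT cells. The 15 neural and glial genes summed to 484 in double-null and 311 in WT cells, and the 12 adipocyte genes to 719 in double-null and 433 in WT cells. The adipocyte list holds Pdgfra, which is also in the fibroblast list, and Cd36 and Lpl, which macrophages also express. Its members Plin1, Adipoq and Cfd had 0 counts in double-null and at most 1 in WT cells. Macrophage and cartilage genes are described with the results they bear on. Xist had 14475 counts in double-null, 12564 in Trp53-/-, 9152 in Zfp871-/- and 12139 in WT cells, while the Y-linked genes Kdm5d, Eif2s3y and Uty had 0 counts in all 4 libraries.

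In the double null, 1216 genes (8.89% of members) had levels at least 2-fold above WT and 1459 genes (10.7%) had levels at least 2-fold below it. At 4-fold the numbers were 428 higher (3.13%) and 561 lower (4.10%), and at 16-fold they were 68 and 119. Levels are given as counts or as normalized CPM, which is CPM after TMM scaling. Differences are given as the log2 ratio of normalized CPM, double null over WT, with a prior count of 2. The bracketed range after a log2 ratio is its exact 95% interval, which covers counting error only. The median log2 ratio of all members was -0.01, with quartiles of -0.41 and 0.36. All 2675 genes past 2-fold had an interval that excluded equal levels, but so did 9673 members (70.7%), so counting error alone separates many small differences. Depth set the precision: the 1890 members with under 100 counts over both libraries had a median interval width of 1.84 on the log2 scale, and 45.0% of them were past 2-fold. The 706 members with at least 10000 counts had a width of 0.0886, and 6.52% of them were past 2-fold.

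**Figure D1:**
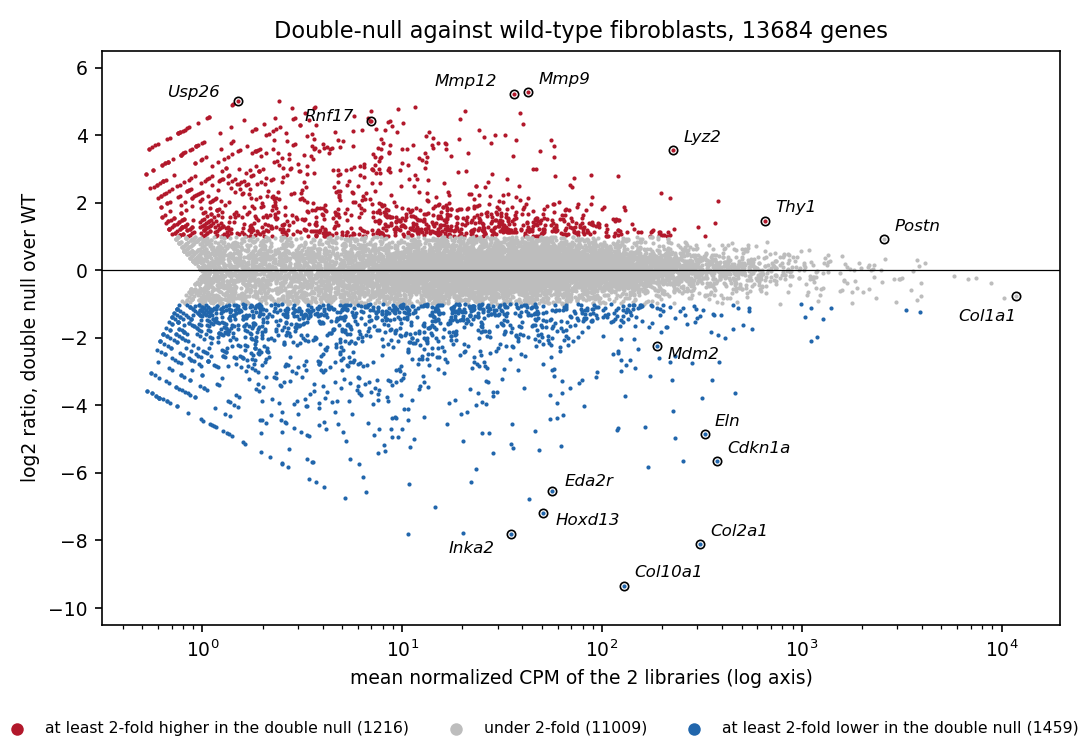
Log2 ratio of the double null over WT (vertical axis) against the mean normalized CPM of both libraries (horizontal log axis), 1 point per gene for 13684 genes, red where at least 2-fold higher in the double null (1216) and blue where at least 2-fold lower (1459). The lowest points are Col10a1 (-9.34) and Col2a1 (-8.10) and the highest is Mmp9 (5.27); genes with 0 counts in 1 library are drawn with the prior count and lie on the slanted lines at the left.

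The extremes of the protein-coding genes came from a few kinds of gene. Lowest were genes of cartilage and the distal limb (Col10a1, Col2a1, Hapln1, Sox6, Smoc1 and Hoxd13) and genes that were nearly silent in both Trp53-null libraries (Inka2, Ano3 and Eda2r). C2cd4a, Cxcl15 and Gm47283 were also among them. Gm47283 is annotated on the Y chromosome, and its counts are uncertain. Highest were genes of macrophages and other white blood cells (Mmp12, Themis2, Cd300lf, Arhgap25, Ms4a7, Fcgr2b, Tlr8, Clec4n and Clec5a), with the gelatinase gene Mmp9, the antiviral gene Oas3 and the testis gene Usp26. In a bulk library, fewer cells of a type and less RNA per cell cannot be told apart. Mmp9, a protease that cuts basement membrane, had 1940 counts in double-null, 1893 in Trp53-/-, 291 in Zfp871-/- and 39 in WT cells, a log2 ratio of 5.27 (4.88 to 5.83). Its level in Zfp871-/- cells lay between those of the Trp53-null libraries and WT. In absolute amount the largest losses were in matrix genes: the normalized CPM of Col1a1 was 8839 in double-null and 14861 in WT cells, and Thbs1, Col3a1, Lox, Fn1 and Col5a1 followed. The largest gain was in Postn, a matricellular protein of connective tissue, with a normalized CPM of 3385 in double-null and 1784 in WT cells, past 2-fold with total counts (log2 ratio 0.92 under TMM).

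Each deleted gene was lower where the label calls it null. Zfp871 (ENSMUSG00000024298, chr17:32765496-32788287, GRCm38/mm10) had 307 counts in double-null, 784 in Trp53-/-, 327 in Zfp871-/- and 660 in WT cells, a log2 ratio of -1.40 (-1.60 to -1.21). Trp53 (ENSMUSG00000059552, chr11:69580359-69591873) had 1382 counts in double-null, 1233 in Trp53-/-, 2413 in Zfp871-/- and 2383 in WT cells, a log2 ratio of -1.08 (-1.18 to -0.99). The remaining reads were not assigned to exons. Scaling by total counts put Trp53 under 2-fold. Of a list of 24 zinc finger genes, most of them on chromosome 17 with Zfp871, 3 were at least 2-fold lower and 0 at least 2-fold higher. The lower ones were Zfp871 itself, Zfp799 (-1.27) and Zfp958 (-1.14). Among all members 10.7% were lower and 8.89% higher by that much, so the share of lower genes was near that of all members. The median log2 ratio of the list was 0.00. The median was 0.10 for the 183 members within 5 Mb of Zfp871 and 0.10 for the 115 members within 5 Mb of Trp53.

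The p53 targets that halt growth were mostly lower in double-null than in WT cells. Of 16 such genes 11 were at least 2-fold lower and 0 at least 2-fold higher, with a median log2 ratio of -1.89. Cdkn1a, whose product p21 blocks the cyclin-dependent kinases, had 341 counts in double-null, 341 in Trp53-/-, 13103 in Zfp871-/- and 13979 in WT cells. Its log2 ratio was -5.65 (-5.82 to -5.50). It was low in both Trp53-null libraries and high in both libraries with Trp53. Cdkn1a was also the only p53 target listed here with a match to the p53 response element in its promoter window. The windows were RefSeq promoters on GRCm38.p6, from 250 bases before to 50 after a gene start, searched on both strands for 2 half-sites of 10 bases at most 13 bases apart. A match was found in 1 of 52 targets with a window and in 6 of 10302 members (0.0582%). Only exact matches to the half-site pattern were counted, so half-sites that depart from it by a base were left out. Cdkn1a had 2 windows, and the first that held a match is shown. The match lies at positions -73 to -42 from the gene start of that window, within chr17:29090876-29090967, plus strand. It is shown because Cdkn1a is the standard p53 target, with both half-sites and the bases between them in capitals.
Cdkn1a: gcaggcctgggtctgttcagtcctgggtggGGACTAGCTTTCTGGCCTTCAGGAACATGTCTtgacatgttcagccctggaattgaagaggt
Sites outside these windows were not searched.

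Other arrest genes with low double-null levels were Ccng1, Btg2, Zmat3 and Inka2. Ccng1, a cyclin-like protein of the p53 pathway, had 1609 counts in double-null, 1607 in Trp53-/-, 17335 in Zfp871-/- and 16224 in WT cells, a log2 ratio of -3.63 (-3.71 to -3.56). Inka2, an inhibitor of the kinase Pak4, had 5 counts in double-null, 2 in Trp53-/-, 1089 in Zfp871-/- and 1313 in WT cells, a log2 ratio of -7.80 (-9.96 to -7.11). It was under 1 CPM in the double null and passed the limit through WT alone. Btg2, an antiproliferative protein, had a log2 ratio of -2.91 and Zmat3, a zinc finger protein that binds RNA, one of -2.34. Rprm, which acts at the entry to mitosis, differed among all 4 libraries, with 24 counts in double-null, 9 in Trp53-/-, 100 in Zfp871-/- and 267 in WT cells. Not all members were lower: Gadd45a (0.20), Plk2 (0.37) and Plk3 (0.47) had positive log2 ratios under 2-fold, and Gtse1 (-1.03) passed 2-fold under TMM scaling and not with total counts.

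Among the 12 regulators of p53 that passed the limit, 3 were at least 2-fold lower and 1 at least 2-fold higher, with a median of -0.45. Mdm2 (ENSMUSG00000020184, chr10:117688875-117710758) had 1523 counts in double-null, 1397 in Trp53-/-, 7786 in Zfp871-/- and 5875 in WT cells, a log2 ratio of -2.25 (-2.33 to -2.17). The level in Zfp871-/- cells was the highest of the 4. Mdm4, the partner of Mdm2 that inhibits p53, hardly differed, with a log2 ratio of -0.28 (-0.39 to -0.18). Trp53inp1, a stress protein induced by p53, had 199 counts in double-null, 241 in Trp53-/-, 3972 in Zfp871-/- and 4305 in WT cells, a log2 ratio of -4.72 (-4.95 to -4.53). Cdkn2a, whose proteins p16Ink4a and p19Arf restrain the cyclin D kinases and Mdm2, stood on the other side. Cdkn2a had 4722 counts in double-null, 3652 in Trp53-/-, 547 in Zfp871-/- and 1042 in WT cells, a log2 ratio of 1.88 (1.78 to 1.98). Its transcripts were counted together. The intervals of the ubiquitin ligase gene Cop1 (0.05) and the deubiquitinase gene Usp7 (0.00) included equal levels.

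Death genes among the p53 targets were also mostly lower. Of 15 members 9 were at least 2-fold lower and 1 at least 2-fold higher, with a median of -1.31. Eda2r, a death receptor of the TNF receptor family, had 26 counts in double-null, 16 in Trp53-/-, 2557 in Zfp871-/- and 2107 in WT cells, a log2 ratio of -6.52 (-7.26 to -6.09). Perp, a membrane protein of cell junctions and apoptosis, had 28 counts in double-null, 9 in Trp53-/-, 439 in Zfp871-/- and 1052 in WT cells, a log2 ratio of -5.42 (-6.13 to -4.99). The level of Perp in Zfp871-/- cells was under that of WT, unlike that of Eda2r. The BH3-only genes Pmaip1 (-1.91) and Bbc3 (-1.89), the pore-forming Bax (-1.31) and the receptor genes Tnfrsf10b (-2.22) and Fas (-1.97) were lower by smaller factors. Casp1, the inflammasome protease, was the exception, with 85 counts in double-null, 111 in Trp53-/-, 1 in Zfp871-/- and 7 in WT cells, a log2 ratio of 3.01 (2.20 to 4.66). It was under 1 CPM in WT and passed the limit through the double null alone. Casp1 is also a gene of macrophages, whose markers were higher in the same 2 libraries, and their part in its level was not tested.

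Of the 18 p53 targets of repair and metabolism 11 were at least 2-fold lower and 1, Gls2, at least 2-fold higher, with a median of -1.58. The lowest were Dglucy, which encodes a cyclase of D-glutamate, with 38 counts in double-null, 64 in Trp53-/-, 807 in Zfp871-/- and 911 in WT cells (log2 ratio -4.80, -5.39 to -4.42), and Ephx1. Ephx1, the microsomal epoxide hydrolase, had 291 counts in double-null, 318 in Trp53-/-, 3558 in Zfp871-/- and 5970 in WT cells, a log2 ratio of -4.65 (-4.83 to -4.49). The nucleotide excision repair gene Ercc5 (-2.21) and the Akt inhibitor Phlda3 (-2.60) were lower as well. Gls2, the p53-regulated glutaminase, was low in WT only, with 54 counts in double-null, 54 in Trp53-/-, 57 in Zfp871-/- and 12 in WT cells, a log2 ratio of 1.72 (0.95 to 2.91). It was under 1 CPM in WT and passed the limit through the double null alone.

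Genes of cell division were higher in the double null almost throughout. Of 35 mitotic genes 28 were at least 2-fold higher and 0 lower by that much, with log2 ratios between 0.63 and 1.59 and a median of 1.25. Of 35 replication genes 30 were at least 2-fold higher and 0 lower by that much, with log2 ratios between 0.62 and 2.47 and a median of 1.34. Summed over the mitotic list, normalized CPM was 3823 in double-null, 3516 in Trp53-/-, 2488 in Zfp871-/- and 1675 in WT cells. For the replication list the sums were 3108 in double-null, 2889 in Trp53-/-, 1953 in Zfp871-/- and 1325 in WT cells. In both lists the double null was highest and WT lowest, with the single nulls between them.

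Among the mitotic genes Top2a, which untangles chromosomes, had 10026 counts in double-null, 8489 in Trp53-/-, 5417 in Zfp871-/- and 3318 in WT cells, a log2 ratio of 1.29 (1.24 to 1.35). The largest ratio was that of Ttk, the kinase of the spindle checkpoint, with 797 counts in double-null, 747 in Trp53-/-, 318 in Zfp871-/- and 214 in WT cells, a log2 ratio of 1.59 (1.38 to 1.82). Espl1 (1.56), which encodes separase, Bub1b (1.53), a checkpoint kinase, and Ncapg (1.53), a condensin subunit, lay close by. The letters TTTGAA, the core of the cell cycle homology region of G2 genes, were found on either strand in the windows of 21 of 29 mitotic genes (72.4%) and of 14.3% of all members with a window. The letters CCAAT were found in 23 of the 29 (79.3%) and in 42.9% of members. Each motif was counted on its own, so matches to different motifs may share bases. The windows of the mitotic genes with the largest ratios are shown around the match, with TTTGAA or its reverse complement in capitals, at chr9:83834666-83834731 (Ttk, plus strand), chr15:102296236-102296301 (Espl1, plus), chr2:118598221-118598260 (Bub1b, plus) and chr5:45669865-45669930 (Ncapg, plus).
Ttk: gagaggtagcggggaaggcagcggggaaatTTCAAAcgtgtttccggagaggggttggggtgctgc
Espl1: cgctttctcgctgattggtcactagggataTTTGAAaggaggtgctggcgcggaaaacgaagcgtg
Bub1b: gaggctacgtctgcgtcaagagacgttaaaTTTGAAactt
Ncapg: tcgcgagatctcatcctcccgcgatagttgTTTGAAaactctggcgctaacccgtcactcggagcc

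Replication genes that act at origins had the largest ratios of their list. Cdc6, which loads the replicative helicase, had 1028 counts in double-null, 895 in Trp53-/-, 261 in Zfp871-/- and 149 in WT cells, a log2 ratio of 2.47 (2.24 to 2.74). Mcm10 (2.05), Orc1 (1.95) and Cdt1 (1.87), which license and fire origins, and the polymerase genes Pole (1.83) and Pola1 (1.66) followed. Pola1 had 1498 counts in double-null, 1403 in Trp53-/-, 840 in Zfp871-/- and 384 in WT cells, so its level in Zfp871-/- cells was well above WT. The E2F motifs TTTCCCGC or TTTGGCGC were found in the windows of 10 of 28 replication genes (35.7%) and of 3.42% of members. They are shown in capitals, in either strand direction, for Cdc6 (chr11:98907983-98908050, plus strand), Cdt1 (chr8:122568017-122568064, plus) and Pola1 (chrX:93632256-93632323, minus).
Cdc6: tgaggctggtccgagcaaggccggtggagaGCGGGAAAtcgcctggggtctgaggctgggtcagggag
Cdt1: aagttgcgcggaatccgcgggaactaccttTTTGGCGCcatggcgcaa
Pola1: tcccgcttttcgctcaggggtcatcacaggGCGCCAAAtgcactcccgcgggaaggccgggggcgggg
A match is a description of the sequence and does not show binding.

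The genes that set the entry into S phase were less uniform. Of 25 members of the G1 and Rb-E2F list 8 were at least 2-fold higher and 2 lower by that much, and with total counts in place of TMM 11 were higher. E2f7 (1.82) and E2f8 (1.29), the E2F repressors, E2f2 (2.25), Ccne2 (1.60), which encodes cyclin E2, Skp2 (1.43), which marks p27 for degradation, and Myc (1.37) were higher. Of these E2f2 was under 1 CPM in WT and passed the limit through the double null alone. Rb1, the retinoblastoma protein that holds E2F in check, had 170 counts in double-null, 232 in Trp53-/-, 322 in Zfp871-/- and 396 in WT cells, a log2 ratio of -1.51 (-1.79 to -1.26). Cdkn2b, the inhibitor p15, had a log2 ratio of -1.21 (-1.35 to -1.08), opposite in sign to its neighbour Cdkn2a. The cyclin D gene Ccnd1 (-0.52) had a log2 ratio below 0, and its partner Cdk4 (0.40) one above 0.

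Every macrophage gene listed was higher in the double null. All 25 were at least 2-fold higher, with log2 ratios between 2.10 and 5.22 and a median of 3.90. The summed normalized CPM of the list was 1251 in double-null, 1393 in Trp53-/-, 109 in Zfp871-/- and 93.2 in WT cells, which is 13.4-fold for the double null over WT. None of the 25 genes was at 0 counts in WT, where 18 of them reached 1 CPM, and those 18 had a median of 3.86. Lyz2, the lysozyme of macrophages and granulocytes, had 9700 counts in double-null, 9136 in Trp53-/-, 695 in Zfp871-/- and 672 in WT cells, a log2 ratio of 3.55 (3.44 to 3.67). Csf1r, the receptor on which macrophages depend, had 2437 counts in double-null, 2698 in Trp53-/-, 230 in Zfp871-/- and 192 in WT cells, a log2 ratio of 3.35 (3.15 to 3.59). Spi1, the transcription factor PU.1 of the myeloid lineage, had 329 counts in double-null, 405 in Trp53-/-, 25 in Zfp871-/- and 13 in WT cells, a log2 ratio of 4.18 (3.57 to 5.29). The complement gene C1qc (4.47), the cathepsin gene Ctss (4.67) and the elastase gene Mmp12 (5.22) were higher by larger factors. In each of these genes both Trp53-null libraries were high and both Trp53-intact libraries low. Csf1, the ligand of Csf1r that fibroblasts make, had a log2 ratio of 0.58 (0.54 to 0.61).

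Genes that interferon induces were also higher in the double null. Of 30 members 26 were at least 2-fold higher and 0 lower by that much, with log2 ratios between 0.46 and 4.81 and a median of 2.20. Of the 26 higher genes 5 were under 1 CPM in WT and passed the limit through the double null alone. The 25 at 1 CPM or more in both libraries had a median of 2.08, with 21 at least 2-fold higher. The summed normalized CPM of the list was 1386 in double-null, 1756 in Trp53-/-, 499 in Zfp871-/- and 438 in WT cells. The summed macrophage list was high in the same 2 libraries, and its part in the interferon levels was not tested. Isg15, a ubiquitin-like modifier, had 2921 counts in double-null, 3718 in Trp53-/-, 387 in Zfp871-/- and 352 in WT cells, a log2 ratio of 2.75 (2.59 to 2.92). Oas2, a sensor of double-stranded RNA, had 151 counts in double-null, 282 in Trp53-/-, 17 in Zfp871-/- and 10 in WT cells, a log2 ratio of 3.40 (2.70 to 4.71). Both genes were higher in Trp53-/- than in double-null cells. Stat2, a subunit of the factor that interferon activates, had a log2 ratio of 1.40 (1.30 to 1.51), and the RNA sensor gene Ddx58 one of 0.69 (0.60 to 0.79). Rnf213, an interferon-inducible ubiquitin ligase outside the list, had 14281 counts in double-null, 14872 in Trp53-/-, 4904 in Zfp871-/- and 2771 in WT cells, a log2 ratio of 2.06 (2.01 to 2.12).

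The letters GAAANNGAAA, the core of the interferon-stimulated response element, were found on either strand in the windows of 12 of 21 interferon-stimulated genes (57.1%). They were found in 3.68% of all members with a window and in 2 of 18 macrophage genes (11.1%). Windows are shown for 4 genes of the list that hold the match, of which Oas1a was chosen after its values were seen, with the match or its reverse complement in capitals, at chr5:120777695-120777764 (Oas3, minus strand), chr12:26456533-26456602 (Rsad2, minus), chr4:156200857-156200926 (Isg15, minus) and chr5:120907506-120907575 (Oas1a, minus).
Oas3: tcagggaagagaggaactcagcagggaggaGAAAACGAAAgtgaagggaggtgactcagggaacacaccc
Rsad2: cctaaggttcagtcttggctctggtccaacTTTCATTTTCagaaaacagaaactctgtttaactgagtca
Isg15: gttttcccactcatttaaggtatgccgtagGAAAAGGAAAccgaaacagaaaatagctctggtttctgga
Oas1a: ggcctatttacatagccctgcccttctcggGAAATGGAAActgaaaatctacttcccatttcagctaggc
Oas3 had 164 counts in double-null, 232 in Trp53-/-, 18 in Zfp871-/- and 3 in WT cells, a log2 ratio of 4.81 (3.90 to 7.77), and Rsad2, which encodes viperin, had one of 2.96 (2.38 to 3.86). Oas1a had 541 counts in double-null, 733 in Trp53-/-, 124 in Zfp871-/- and 67 in WT cells, a log2 ratio of 2.68 (2.35 to 3.10). In all 4 genes Trp53-/- cells had the highest count. The Oas genes are close copies of each other, so reads may be split between them.

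Antigen presentation differed less. Of 15 members of the MHC class I list 6 were at least 2-fold higher and 0 lower by that much, with a median of 0.82. Of the higher genes Psmb9 was under 1 CPM in WT and passed the limit through the double null alone. Among the 14 at 1 CPM or more in both libraries 5 were at least 2-fold higher, with a median of 0.69. H2-K1, a classical class I chain, had 6830 counts in double-null, 8747 in Trp53-/-, 2355 in Zfp871-/- and 2541 in WT cells, a log2 ratio of 1.13 (1.06 to 1.19). The immunoproteasome genes Psmb8 (1.27) and Psmb9 (1.99) and Nlrc5 (1.23), which drives class I transcription, were higher, whereas the transporter genes Tap1 (-0.39) and Tap2 (0.09) were under 2-fold. H2 genes are near-identical in sequence and their counts are uncertain.

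Chemokines split into a higher and a lower set, with 9 of 17 members at least 2-fold higher and 5 lower by that much. Of the 9 higher genes 4 were under 1 CPM in WT, and of the 5 lower 1 was under 1 CPM in the double null. These passed the limit through the other library alone. Among the 11 members at 1 CPM or more in both, 5 were higher and 4 lower by that much. Ccl9, made by myeloid cells, had 1431 counts in double-null, 1349 in Trp53-/-, 93 in Zfp871-/- and 71 in WT cells, a log2 ratio of 4.00 (3.69 to 4.40). Ccl2, which attracts monocytes, had 3382 counts in double-null, 4612 in Trp53-/-, 1164 in Zfp871-/- and 612 in WT cells, a log2 ratio of 2.16 (2.04 to 2.29). Ccl4 was at 0 counts in WT and at least 10.6-fold higher in the double null, taking 3 counts as the limit for a library at 0. Among the lower were Cxcl5 and Cxcl1, which attract neutrophils, and Cxcl15. Cxcl5 had 427 counts in double-null, 226 in Trp53-/-, 359 in Zfp871-/- and 1486 in WT cells, a log2 ratio of -2.09 (-2.26 to -1.94), and Cxcl1 had one of -1.83. Cxcl15 had 1 count in double-null, 4 in Trp53-/-, 6 in Zfp871-/- and 247 in WT cells. In each of these 3 genes WT stood above the other 3 libraries.

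**Figure D2:**
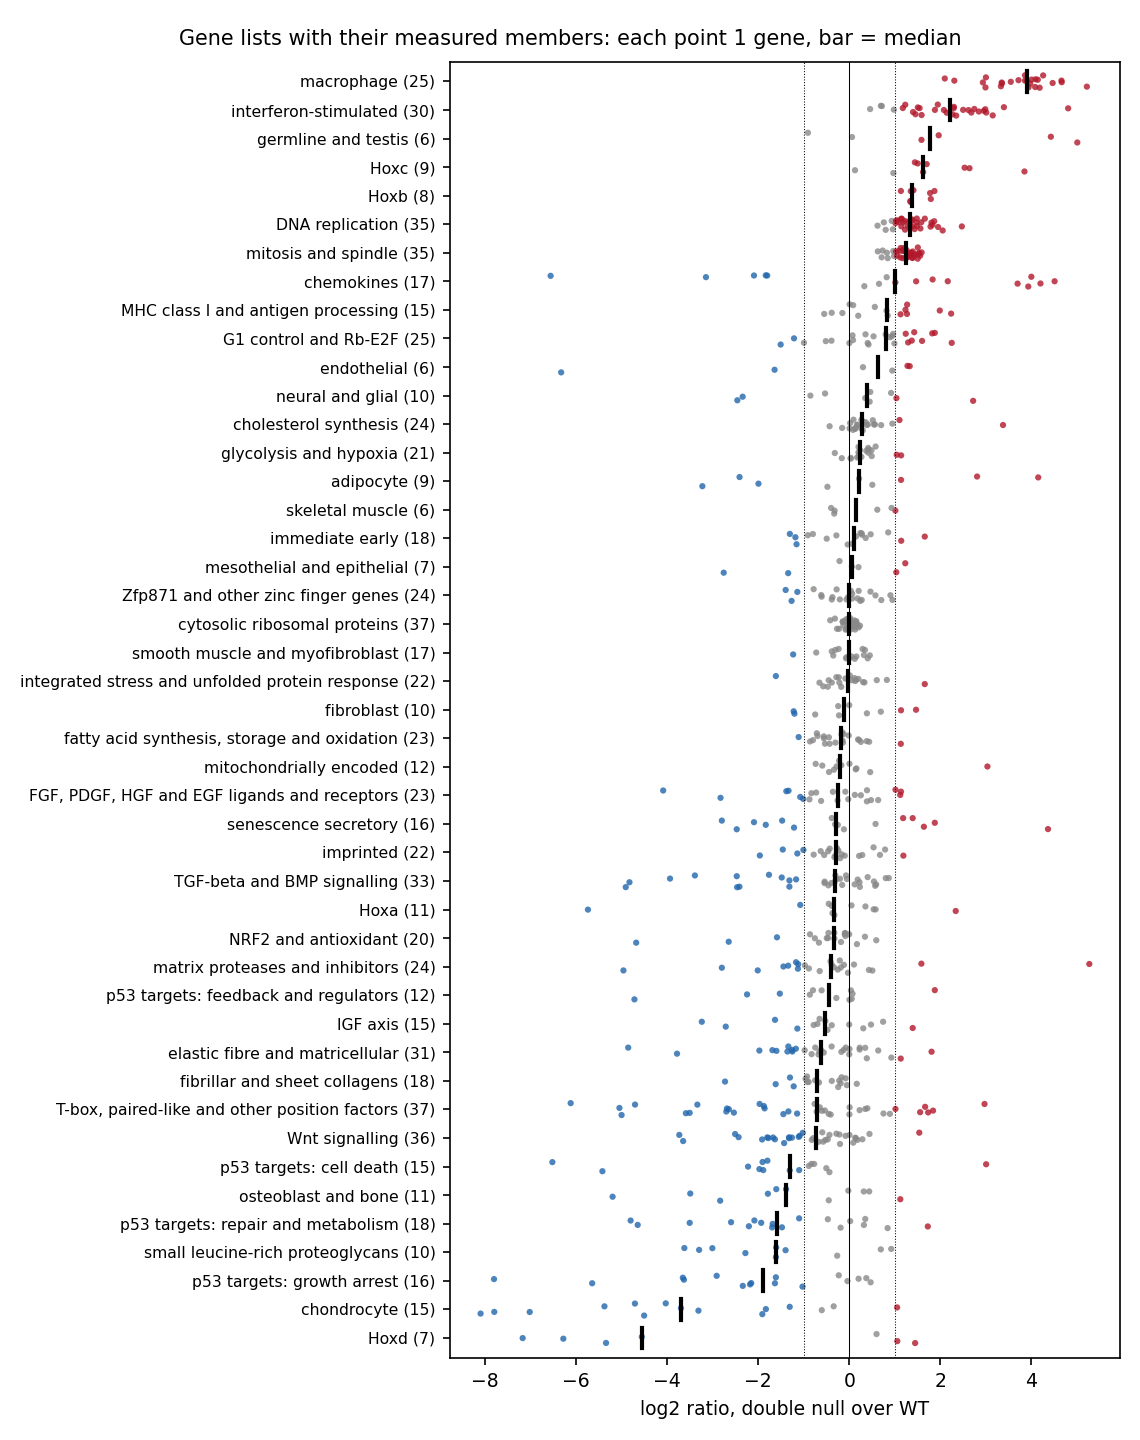
Log2 ratio of the double null over WT (horizontal axis) for each gene list with at least 6 measured members, 1 point per gene, red at least 2-fold higher, blue at least 2-fold lower, grey between, with the median as a black bar and the number of members in brackets; genes with 0 counts in 1 library are drawn with the prior count. Macrophage genes have the highest median (3.90), and the chondrocyte (-3.70) and Hoxd (-4.56) lists the lowest, while ribosomal protein genes stay within 2-fold.

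Many cartilage genes were far lower in the double null. Of 15 chondrocyte genes 12 were at least 2-fold lower and 1 at least 2-fold higher, with a median of -3.70, or -3.52 with the genes at 0 counts placed at their bound. Of the 12 lower genes 8 were under 1 CPM in the double null and so passed the limit through WT alone. The 6 members at 1 CPM or more in both libraries had a median of -1.57, with 4 at least 2-fold lower. The list summed to a normalized CPM of 204 in double-null, 144 in Trp53-/-, 532 in Zfp871-/- and 1403 in WT cells. Col2a1 (chr15:97975602-98004695), the collagen of cartilage, had 50 counts in double-null, 25 in Trp53-/-, 558 in Zfp871-/- and 11633 in WT cells, a log2 ratio of -8.10 (-8.59 to -7.76). Col10a1 (chr10:34389981-34397085), made by hypertrophic chondrocytes of the growth plate, had 7 counts in double-null, 16 in Trp53-/-, 183 in Zfp871-/- and 4863 in WT cells, a log2 ratio of -9.34 (-11.06 to -8.70). Acan, the proteoglycan aggrecan, had 180 counts in double-null, 100 in Trp53-/-, 166 in Zfp871-/- and 1919 in WT cells, a log2 ratio of -3.70 (-3.94 to -3.49). These genes were high in the WT library alone, and each of the other 3 libraries lay far below it.

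The link protein gene Hapln1 was at 0 counts in double-null cells, against 404 counts in WT, at least 166-fold lower, and Col9a1 was at least 30.4-fold lower. Among the transcription factors of cartilage, Sox6 had 3 counts in double-null, 6 in Trp53-/-, 49 in Zfp871-/- and 551 in WT cells, a log2 ratio of -7.02 (-10.10 to -6.27). Sox5 had a log2 ratio of -4.71 (-5.86 to -4.14). Sox9, which acts upstream of both, had 774 counts in double-null, 654 in Trp53-/-, 771 in Zfp871-/- and 798 in WT cells, a log2 ratio of only -0.34 (-0.49 to -0.20). Matn3 was the member at least 2-fold higher, at 33 counts in double-null and 12 in WT cells, a ratio that stayed under 2-fold with a prior count of 5.

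Bone genes were lower in part. Of 11 members 6 were at least 2-fold lower, 3 of which passed the limit through WT alone, and 1 at least 2-fold higher, with a median of -1.39, and 5 further genes of the list stayed under 1 CPM in both libraries. Bmp4, a ligand that patterns the limb and induces bone, had 75 counts in double-null, 90 in Trp53-/-, 198 in Zfp871-/- and 2303 in WT cells, a log2 ratio of -5.20 (-5.59 to -4.91). Spp1, osteopontin, had 13393 counts in double-null, 9637 in Trp53-/-, 18669 in Zfp871-/- and 28485 in WT cells, a log2 ratio of -1.39 (-1.42 to -1.36). Runx2, the master factor of osteoblasts, was at WT level (-0.02, -0.13 to 0.09), and Sp7, which acts after it, was higher (1.12, 0.60 to 1.75).

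Hox genes, which record where along the body or limb a mesenchymal cell arose, differed by cluster and by place within the cluster. In Hoxd the 5′ genes, which mark the distal limb, were far lower in the double null. All 4 lower Hoxd genes were under 1 CPM there and passed the limit through WT alone. Hoxd13 (chr2:74668310-74671599) had 14 counts in double-null, 14 in Trp53-/-, 142 in Zfp871-/- and 1904 in WT cells, a log2 ratio of -7.17 (-8.26 to -6.64). Hoxd12 was at 0 counts in double-null, against 140 in WT cells, at least 57.5-fold lower, and Hoxd11 (-5.34) and Hoxd10 (-4.56) were lower by decreasing factors. The step lay between Hoxd10 and Hoxd9, since Hoxd9 (0.60, 0.17 to 1.06) and Hoxd8 (1.05, 0.83 to 1.30) had log2 ratios above 0. Hoxa13, the other distal limb gene measured, had 3 counts in double-null, 9 in Trp53-/-, 15 in Zfp871-/- and 226 in WT cells, a log2 ratio of -5.74 (-8.82 to -4.97). It too was under 1 CPM in the double null and passed the limit through WT alone. Hoxd13 and Hoxa13 were both highest in WT by a wide margin. The chondrocyte list was high in the same library, and its part in the Hox levels was not tested.

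Hoxb and Hoxc went the other way. All 8 Hoxb members were at least 2-fold higher, with log2 ratios between 1.13 and 1.87. Of 9 Hoxc members 7 were at least 2-fold higher and 0 lower by that much, with a median of 1.62. Of these higher genes 1 in Hoxb and 2 in Hoxc were under 1 CPM in WT and passed the limit through the double null alone. Hoxb9 had 1347 counts in double-null, 1527 in Trp53-/-, 973 in Zfp871-/- and 428 in WT cells, a log2 ratio of 1.35 (1.20 to 1.51). Hoxc6 had 845 counts in double-null, 1059 in Trp53-/-, 795 in Zfp871-/- and 241 in WT cells, and a normalized CPM of 36.4 in double-null and 12.8 in WT cells. For these genes WT was the low library and the other 3 were close together. Summed over the cluster, Hoxb reached a normalized CPM of 125 in double-null, 145 in Trp53-/-, 111 in Zfp871-/- and 45.3 in WT cells. Per length, in the authors' deposited values read as FPKM, Hoxb9 was the highest Hox gene in double-null cells at 22.5 FPKM, against 8.76 FPKM in WT. Hoxd13 was the highest in WT cells at 40.4 FPKM, and stood at 0.242 FPKM in double-null cells. Of the other Hoxa genes Hoxa4 (2.34) was at least 2-fold higher and Hoxa11 (-1.08) at least 2-fold lower, the second of these not so with total counts. Hoxa4 was under 1 CPM in WT and passed the limit through the double null alone.

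**Figure D3:**
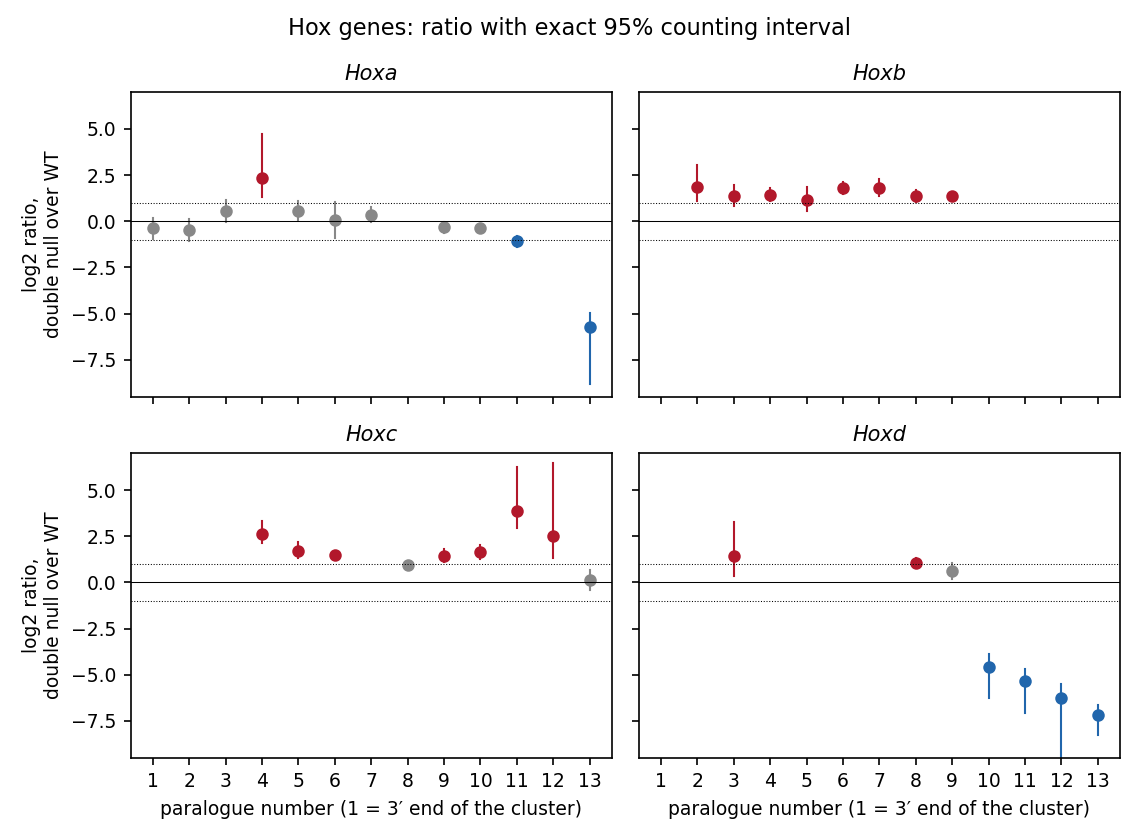
Log2 ratio of the double null over WT (vertical axis) with its exact 95% counting interval for the measured genes of each Hox cluster, by paralogue number (horizontal axis, 1 at the 3′ end), red at least 2-fold higher and blue at least 2-fold lower. Hoxb and most Hoxc genes lie above 0, and Hoxd10 (-4.56) to Hoxd13 (-7.17) and Hoxa13 (-5.74) far below it; Hoxd12 has 0 counts in the double null, so its interval has no lower end.

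Other transcription factors of position followed with a mixed picture. Of 37 members 17 were at least 2-fold lower and 6 at least 2-fold higher, with a median of -0.72. Of the 17 lower genes 7 were under 1 CPM in the double null and passed the limit through WT alone. Nkx3-2, a factor of axial cartilage, had 2 counts in double-null, 5 in Trp53-/-, 11 in Zfp871-/- and 238 in WT cells, a log2 ratio of -6.12 (-10.25 to -5.33). Tbx4, the hindlimb T-box gene, had 5 counts in double-null, 8 in Trp53-/-, 40 in Zfp871-/- and 193 in WT cells, a log2 ratio of -5.05 (-7.21 to -4.32). Lhx2 (-5.00), which acts in limb outgrowth, Msx2 (-3.59), Six2 (-3.51) and Barx1 (-3.34) were lower too. Meox1, a factor of somites, stood highest in double-null cells, with 218 counts in double-null, 95 in Trp53-/-, 21 in Zfp871-/- and 21 in WT cells, a log2 ratio of 2.97 (2.43 to 3.80). Prrx1, a general mark of limb mesenchyme, had a log2 ratio of -0.41 and Tbx15 one of 0.00.

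Genes of the extracellular matrix ranged widely, and most of those listed were under 2-fold. Of 18 fibrillar and sheet collagens 4 were at least 2-fold lower and 0 at least 2-fold higher, with a median of -0.71, against 10.7% of all members lower by that much and a median of -0.01. The list summed to a normalized CPM of 33496 in double-null, 38132 in Trp53-/-, 52946 in Zfp871-/- and 52057 in WT cells. Col3a1, which is found with type I collagen in soft tissue, had 54589 counts in double-null, 68012 in Trp53-/-, 81649 in Zfp871-/- and 103413 in WT cells, a log2 ratio of -1.22 (-1.24 to -1.21). Col18a1, a collagen of basement membranes, had 1338 counts in double-null, 1133 in Trp53-/-, 4145 in Zfp871-/- and 7217 in WT cells, a log2 ratio of -2.73 (-2.82 to -2.65). The ratio was smaller for Col1a1 (-0.75) and Col1a2 (-0.24).

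Elastic fibre and matricellular genes gave 10 of 31 at least 2-fold lower and 2 at least 2-fold higher. Eln, elastin, had 504 counts in double-null, 547 in Trp53-/-, 2773 in Zfp871-/- and 11907 in WT cells, a log2 ratio of -4.86 (-4.99 to -4.73). Ccn5, a matricellular protein that restrains smooth muscle growth, had 995 counts in double-null, 828 in Trp53-/-, 2539 in Zfp871-/- and 11156 in WT cells, a log2 ratio of -3.78 (-3.88 to -3.69). Both genes had their WT level highest, their Zfp871-/- level between and both Trp53-null levels lowest. Ltbp4, which holds latent TGF-beta on elastic fibres, had another pattern, with 287 counts in double-null, 737 in Trp53-/-, 215 in Zfp871-/- and 711 in WT cells, a log2 ratio of -1.60 (-1.81 to -1.41). It was low in both Zfp871-null libraries and near WT in Trp53-/- cells. Ccn3 was lowest in the double null, with 715 counts in double-null, 1402 in Trp53-/-, 1108 in Zfp871-/- and 2289 in WT cells, a log2 ratio of -1.98 (-2.10 to -1.86). Mfap4, a microfibril protein, was higher, with 3608 counts in double-null, 4504 in Trp53-/-, 2121 in Zfp871-/- and 836 in WT cells, a log2 ratio of 1.81 (1.70 to 1.92). Lox, which cross-links collagen and elastin, had a log2 ratio of -1.17 (-1.19 to -1.16).

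Small leucine-rich proteoglycans, which coat collagen fibrils, were mostly lower, with 7 of 10 at least 2-fold lower and 0 at least 2-fold higher. Of the 7 lower genes 2 passed the limit through WT alone. Among the 8 at 1 CPM or more in both libraries 5 were at least 2-fold lower. Lum, lumican, had 217 counts in double-null, 392 in Trp53-/-, 597 in Zfp871-/- and 2192 in WT cells, a log2 ratio of -3.62 (-3.84 to -3.43), and Ogn, osteoglycin, had one of -3.01. Bgn (-0.27) was close to WT, and Dcn (0.69) and Aspn (0.92) had positive ratios under 2-fold, of which Aspn passed it with total counts.

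Among proteases and their inhibitors 8 of 24 were at least 2-fold lower and 2, Mmp9 and Mmp10, at least 2-fold higher. Serpine2, an inhibitor of thrombin and plasminogen activators, had 335 counts in double-null, 462 in Trp53-/-, 3187 in Zfp871-/- and 8531 in WT cells, a log2 ratio of -4.96 (-5.13 to -4.81). Mmp2 (-2.01), Mmp3 (-2.80), Timp2 (-1.45) and Timp3 (-1.13) were lower. Mmp2 had a normalized CPM of 163 in double-null and 659 in WT cells, so that this gelatinase and Mmp9 lay on opposite sides.

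**Figure D4:**
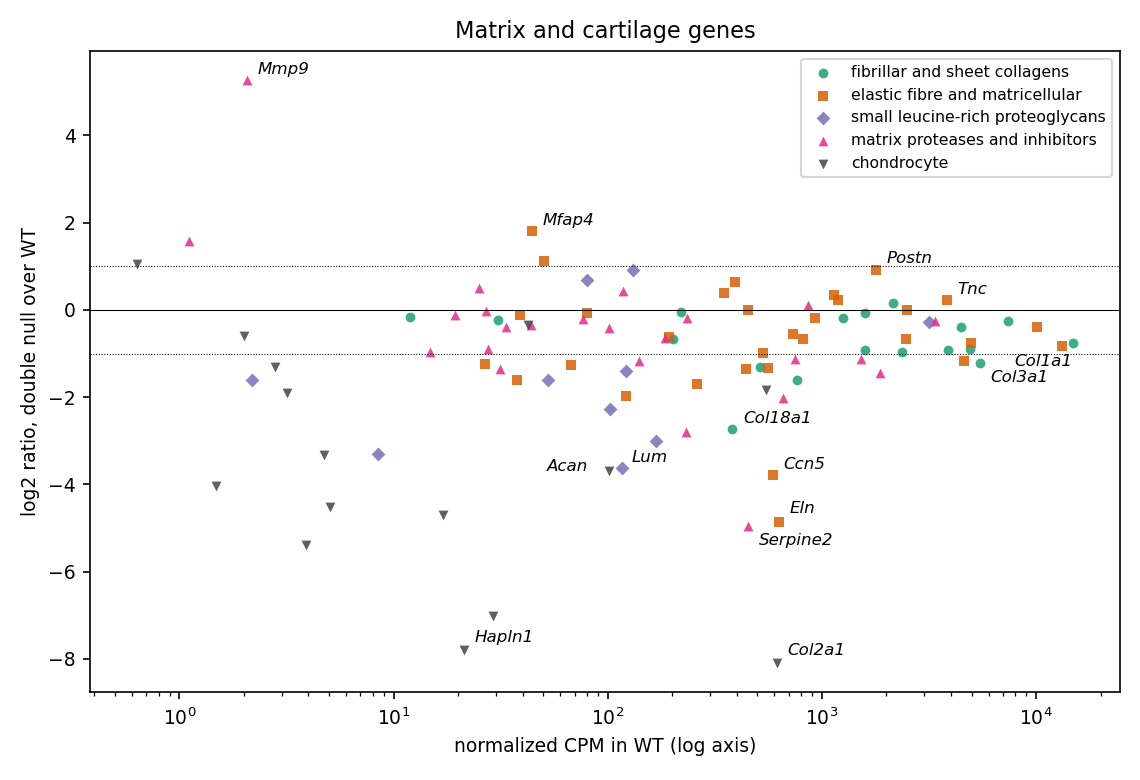
Log2 ratio of the double null over WT (vertical axis) against the normalized CPM in WT (horizontal log axis) for genes of the matrix and cartilage lists, 1 point per gene, with a colour and marker for each list. Col1a1 (-0.75) lies within 2-fold of WT and Col3a1 (-1.22) just beyond it, Eln (-4.86), Serpine2 (-4.96) and Col2a1 (-8.10) far below, and Mmp9 (5.27) far above; Hapln1 has 0 counts in the double null and is drawn with the prior count.

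Signalling ligands and their antagonists were more often lower than higher. Of 33 TGF-beta and BMP genes 12 were at least 2-fold lower and 0 at least 2-fold higher, with a median of -0.32. Of the 12 lower genes 3 passed the limit through WT alone. Among the 30 at 1 CPM or more in both libraries 9 were lower by that much, with a median of -0.29. Gdf5, a ligand of joint formation, was at 0 counts in double-null, against 53 in WT cells, at least 21.7-fold lower, and Bmp5 was at least 20.5-fold lower. Chrd (-3.39) and Fst (-2.46), secreted antagonists of BMPs and activins, were lower too, so both ligands and antagonists were among the lower genes. Fst had 805 counts in double-null, 1024 in Trp53-/-, 3228 in Zfp871-/- and 3616 in WT cells. Inhba (-0.16) and Grem1 (-0.54), both abundant, differed less.

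Of 36 Wnt genes 16 were at least 2-fold lower and 1 at least 2-fold higher, with a median of -0.74. Of the 16 lower genes 4 passed the limit through WT alone, and the 1 higher gene through the double null alone. The 31 at 1 CPM or more in both libraries had a median of -0.59, with 12 lower and 0 higher by that much. Rspo2, which amplifies Wnt signals in the limb, had 91 counts in double-null, 91 in Trp53-/-, 101 in Zfp871-/- and 1006 in WT cells, a log2 ratio of -3.73 (-4.09 to -3.46). Rspo3 (-2.51), its relative, and the Wnt-induced genes Rnf43 (-3.65), Tcf7 (-2.43) and Axin2 (-1.80) were lower. Axin2 had 62 counts in double-null, 68 in Trp53-/-, 64 in Zfp871-/- and 180 in WT cells. In Rspo2 and Axin2 the 3 null libraries were close together and WT was high. Sfrp1, a secreted Wnt antagonist, had its highest level elsewhere, with 464 counts in double-null, 494 in Trp53-/-, 2271 in Zfp871-/- and 1426 in WT cells, a log2 ratio of -1.91 (-2.07 to -1.77).

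In the IGF axis 4 of 15 genes were at least 2-fold lower and 1 at least 2-fold higher. The binding proteins lay on both sides. Igfbp4 had 998 counts in double-null, 584 in Trp53-/-, 3040 in Zfp871-/- and 7671 in WT cells, a log2 ratio of -3.24 (-3.34 to -3.15), and Igfbp2 had one of -2.71 (-2.78 to -2.65). Igfbp5 had 12423 counts in double-null, 14952 in Trp53-/-, 4216 in Zfp871-/- and 3843 in WT cells, a log2 ratio of 1.39 (1.34 to 1.45). Among growth factor receptors Pdgfra, a marker of fibroblasts, had 5634 counts in double-null, 6804 in Trp53-/-, 3089 in Zfp871-/- and 2081 in WT cells, a log2 ratio of 1.14 (1.06 to 1.21). Its ligand gene Pdgfa was lower, with a log2 ratio of -2.83 (-3.11 to -2.59). Thy1, the other fibroblast marker past 2-fold upward, had 22282 counts in double-null, 24868 in Trp53-/-, 16380 in Zfp871-/- and 6549 in WT cells, a log2 ratio of 1.47 (1.43 to 1.51).

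A few germline genes had more counts in the double null than in WT. Of 24 germline and testis genes only 6 passed the limit, of which 4 were at least 2-fold higher and 0 lower by that much. For 3 of these 4 the WT level was under 1 CPM, so they passed the limit through the double null alone. Rnf17 (ENSMUSG00000000365, chr14:56402581-56525032), a Tudor-domain protein of male germ cells, had 311 counts in double-null, 14 in Trp53-/-, 301 in Zfp871-/- and 10 in WT cells, a log2 ratio of 4.43 (3.76 to 5.73). Usp26, an X-linked deubiquitinase of the testis, had 70 counts in double-null, 0 in Trp53-/-, 153 in Zfp871-/- and 0 in WT cells, at least 18.95-fold above WT in the double null. Both genes were high in the 2 Zfp871-null libraries and at 0 to 14 counts in the other 2. Tdrkh, another Tudor-domain gene, did not share that pattern, with 261 counts in double-null, 236 in Trp53-/-, 101 in Zfp871-/- and 53 in WT cells, a log2 ratio of 1.96 (1.57 to 2.45).

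**Figure D5:**
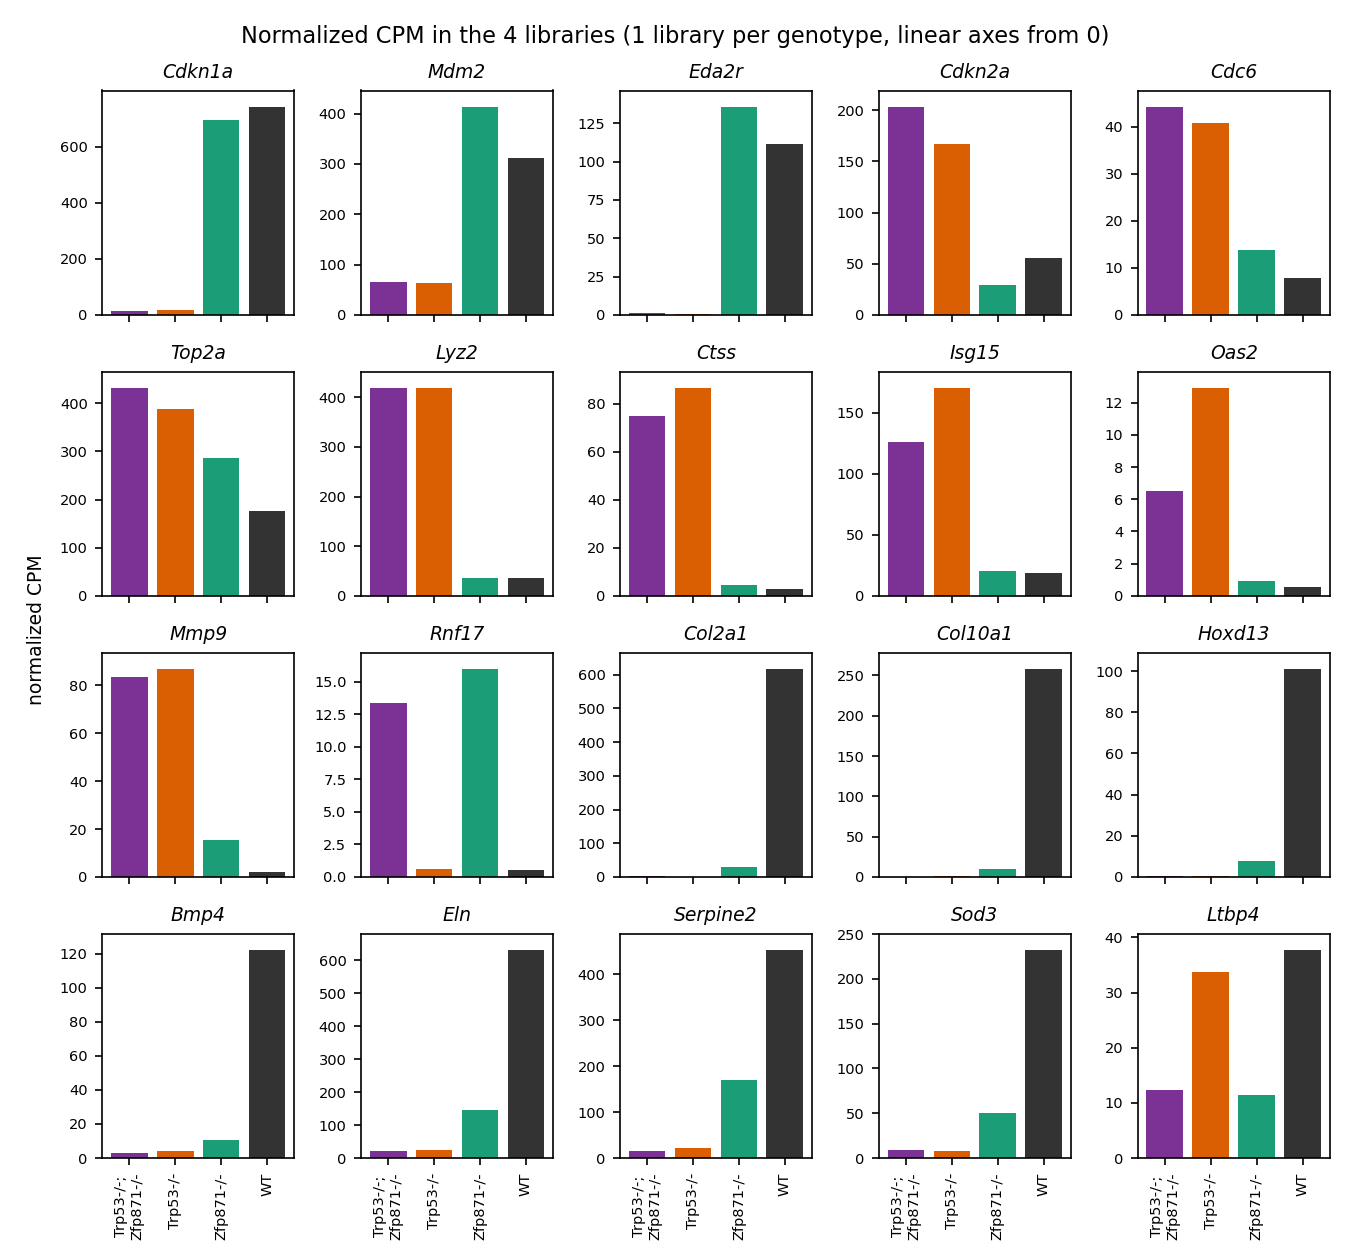
Normalized CPM (vertical axes, linear from 0, scale set per gene) of 20 genes in the 4 libraries, 1 bar per library with no replicate and no error bar, in the order Trp53-/-; Zfp871-/-, Trp53-/-, Zfp871-/- and WT. Cdkn1a, Mdm2 and Eda2r are low in both Trp53-null libraries, Lyz2, Ctss and Isg15 high in both, Rnf17 high and Ltbp4 low in both Zfp871-null libraries, and Col2a1, Col10a1 and Hoxd13 high in WT alone.

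Most genes of the lipid and energy metabolism lists were under 2-fold between double-null and WT cells. Of 24 cholesterol genes 2 were at least 2-fold higher and 0 lower by that much, beside 8.89% higher and 10.7% lower among all members. Their median was 0.28, with 22 log2 ratios above 0 and a highest of 3.38. Of 23 genes of fatty acid synthesis, storage and oxidation, Fabp5 (1.13), a fatty acid carrier, was at least 2-fold higher and Cpt2 (-1.11), of mitochondrial import, at least 2-fold lower. Cd36 (4.15), a fatty acid transporter, and Lpl (2.81), lipoprotein lipase, were higher, and both are also expressed by macrophages, whose part was not tested. Pparg, the factor of fat cells, had 103 counts in double-null, 134 in Trp53-/-, 118 in Zfp871-/- and 339 in WT cells, so that WT was highest. Of 21 glycolysis and hypoxia genes 2 were at least 2-fold higher and 0 lower by that much, beside the same shares of all members. Their median was 0.24, with 19 log2 ratios above 0.

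Stress genes held some large single differences. Sod3, extracellular superoxide dismutase, had 208 counts in double-null, 175 in Trp53-/-, 952 in Zfp871-/- and 4379 in WT cells, a log2 ratio of -4.68 (-4.90 to -4.49). Nqo1, a quinone reductase and standard target of NRF2, had 796 counts in double-null, 563 in Trp53-/-, 3144 in Zfp871-/- and 4064 in WT cells, a log2 ratio of -2.65 (-2.76 to -2.54). The rest of the 20 NRF2 and antioxidant genes included 1 more at least 2-fold lower, Gsta4 (-1.59), and 0 at least 2-fold higher. That made 3 of 20 lower, beside 10.7% lower and 8.89% higher among all members. In the integrated stress and unfolded protein responses 1 of 22 genes was at least 2-fold higher, Atf3 (1.66), and 1 at least 2-fold lower, the p53 target Sesn2 (-1.61). Both shares were under those of all members.

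Ribosomal and contractile genes stayed level. All 37 cytosolic ribosomal protein genes were within 2-fold, with log2 ratios between -0.42 and 0.23. Of 17 smooth muscle and myofibroblast genes only Mylk (-1.23) passed 2-fold, and Acta2, the actin of myofibroblasts, had a log2 ratio of 0.32 (0.30 to 0.34). The medians of both lists were -0.00 and turned above 0 with each other scaling run (0.09 for both lists with total counts, which moved the median of all members up by 0.09). Senescence genes split instead. Of 16 secreted factors and markers of senescence 5 were at least 2-fold higher and 6 lower by that much. Of the 5 higher genes 2 were under 1 CPM in WT and passed the limit through the double null alone. Lmnb1, the nuclear lamin that is lost in senescent cells, had 2818 counts in double-null, 2393 in Trp53-/-, 1662 in Zfp871-/- and 734 in WT cells, a log2 ratio of 1.64 (1.52 to 1.76). Of 22 imprinted genes 4 were at least 2-fold lower and 1 at least 2-fold higher, beside 10.7% lower and 8.89% higher among all members. They were Mest (-1.97), Plagl1 (-1.46), Igf2 (-1.14) and Snrpn (-1.01) against Peg3 (1.19), and Snrpn was under 2-fold with total counts.

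Members that are not protein coding held large differences too. The lincRNA Gm42047 (chromosome 8) had 136 counts in double-null, 176 in Trp53-/-, 6770 in Zfp871-/- and 6330 in WT cells, a log2 ratio of -5.82 (-6.10 to -5.60), so that it was low in both Trp53-null libraries. Ptprv, listed as a processed transcript, had 1 count in double-null, 8 in Trp53-/-, 110 in Zfp871-/- and 134 in WT cells. Gm8995 was the highest of these types, with 310 counts in double-null, 343 in Trp53-/-, 15 in Zfp871-/- and 10 in WT cells, a log2 ratio of 4.42 (3.76 to 5.73). The strand setting of the counting was not stated, so reads of overlapping and antisense genes such as Gm16170 cannot be told apart.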

How the data were processed

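RNA from 4 cultures of mouse embryonic fibroblasts, 1 library per genotype, was sequenced by the authors. The deposited table holds raw counts per Ensembl gene, made on mm10 with fastp, STAR and featureCounts per the submitters' processing notes; versions, annotation release and strand setting: not given in the sources used here. A further deposited table per library holds normalized values with no unit in its header. They were taken to be the authors' FPKM, a reading that the labels do not settle. The factor between count and value differed between the double null and WT by 1.2249 for 100% of 19150 genes within 0.1%. That is the ratio of the DESeq2 size factors (1.2249) and not that of the total counts (1.1565). Ratios from these values therefore repeat that scaling. Of 54532 gene IDs, 54495 were found in GENCODE M21 (GRCm38), the source of symbols, types and coordinates, and the other 37 took 0.00398% to 0.00535% of the counts.

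Counts were scaled by TMM (edgeR 4.0.16, R 4.3.3) over the 4 libraries, using genes with a CPM of at least 1 in at least 2 libraries. The factors were 1.041 in double-null, 1.0406 in Trp53-/-, 0.9438 in Zfp871-/- and 0.978 in WT cells. The compared genes had a CPM of at least 1 in double-null or WT cells. A log2 ratio adds a prior count of 2. Intervals are exact (Clopper-Pearson) at 95%, and a library at 0 counts is bounded by 3 counts in that library. Reads were not collapsed by molecular identifiers, so intervals and bounds cover counting error only. With 1 library per genotype no test was made. The ratio and interval code was checked on simulated data.

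The members and the 46 gene lists were chosen with earlier results of these data known. Genes were named by rule: both targeted genes, the 12 highest and 12 lowest ratios and the 6 largest differences in CPM each way among protein-coding genes, the 6 highest and 6 lowest ratios of other types, and from each list up to 8 genes by ratio and 3 by counts, or all of up to 16 members. Promoter sequences are RefSeq's, on GRCm38.p6, and 10302 members matched by symbol or gene ID. Alternatives were other scalings (total counts, TMM of the 2 libraries, DESeq2 1.42.0 size factors), prior counts, CPM limits, fold limits and the authors' FPKM.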

Additional observations from a re-analysis of the deposited data

How the results depend on the processing

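The counts of genes past 2-fold followed the filter. In the double null 1216 genes were higher and 1459 lower than in WT. With no filter beyond 1 count in either library these numbers were 2505 and 2972, with a CPM of at least 5 in at least 1 library 783 and 903, with a CPM of at least 1 in both 768 and 924, and at 4-fold 428 and 561. With an interval wholly beyond 2-fold, 804 were higher and 977 lower. Total counts in place of TMM moved the split, since 1362 genes were then higher and 1324 lower, 50.7% of calls upward in place of 45.5%. The other scalings and prior counts gave 1162 to 1252 genes higher and 1400 to 1487 lower. No ratio of a named gene that was past 2-fold changed sign under any alternative run. These runs could not have shown such a change. The scalings shifted ratios by about 0.09 or less, and a prior count draws a ratio toward equal levels without turning its sign. List medians moved by over 0.1 in 4 of 230 recomputed values: with a prior count of 5 the chemokines (0.91), the chondrocyte list (-2.98) and Hoxd (-4.13), and with 0.5 Hoxd (-4.84). For the scaling runs this limit was no check, because total counts, the largest shift, moved the median of all members by only 0.09. Of the recomputed ratios of named genes 150 left their counting interval, 128 of them with total counts and 22 with a prior count of 5. With total counts Trp53, Gtse1, Hoxa11, Ereg and Snrpn were under 2-fold, Aspn, Neb, Kdr, Ncam1, Hoxc8, Stard4, Zfp101 and Postn were past it, and with a prior count of 5 Matn3, Chrna1 and Snrpn were under it. Restricted to members at 1 CPM or more in both libraries, an alternative chosen after seeing the data, the median of Hoxd was 0.83 over 2 genes, opposite in sign to -4.56 over 7, because the 4 lower genes left. The bone median was then -0.24, the chondrocyte median -1.57 and the macrophage median 3.86. No paired analysis was possible because each genotype had 1 library, and for the same reason no library could be left out. Depth limits the low genes, whose intervals are widest.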

Other observations

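The mitochondrially encoded genes were level apart from mt-Nd3. Of 12 members 11 were within 2-fold of WT, and mt-Nd3, a subunit of respiratory complex I, had 359 counts in double-null, 309 in Trp53-/-, 38 in Zfp871-/- and 34 in WT cells, a log2 ratio of 3.03 (2.59 to 3.65). mt-Co1 had 125579 counts in double-null and 115146 in WT cells (-0.17), and mt-Nd6, the subunit encoded on the other strand, had 5846 in double-null and 7924 in WT cells (-0.74).

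Gm47283, a gene annotated on the Y chromosome, was at 0 counts in double-null cells. It had 337 counts in Trp53-/-, 202 in Zfp871-/- and 154 in WT cells, and was at least 63.2-fold lower in the double null than in WT. The libraries had 0 counts for Kdm5d, Eif2s3y and Uty, and Mid1-ps1, a neighbouring pseudogene, which was named after its values were seen, had 126 counts in double-null, 61 in Trp53-/-, 45 in Zfp871-/- and 37 in WT cells. Genes of this region have near-identical copies on X, so these counts are uncertain.

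By chromosome the median log2 ratio ran from -0.10 on X to 0.05 on chromosome 5 among the chromosomes with at least 370 members. Neural genes gave 2 of 10 members at least 2-fold higher and 2 lower by that much, beside 8.89% higher and 10.7% lower among all members. Of these neural genes 1 higher and 1 lower passed the limit through 1 library alone. Elavl4, an RNA-binding protein of neurons, had 45 counts in double-null, 31 in Trp53-/-, 8 in Zfp871-/- and 4 in WT cells, a log2 ratio of 2.72 (1.74 to 5.13), and Stmn2, a microtubule protein of neurons, had one of -2.34 (-2.74 to -2.02). Among endothelial genes Erg, an ETS factor, had 4 counts in double-null, 0 in Trp53-/-, 31 in Zfp871-/- and 406 in WT cells, and Flt1, a VEGF receptor, had 2661 in double-null, 3933 in Trp53-/-, 2250 in Zfp871-/- and 890 in WT cells, a log2 ratio of 1.28 (1.17 to 1.39). Of 18 immediate early genes 2 were at least 2-fold higher and 3 lower by that much, which is near the same shares of all members. Klf4 was the lowest, with a log2 ratio of -1.31 (-1.41 to -1.20).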
